A study of Homo sapiens with 12 samples.

Results

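The extracellular matrix is the network of secreted proteins that surrounds cells, and 9 of its genes are described here: FN1, COL1A1, COL1A2, COL3A1, COL4A1, COL4A2, LUM, NID2 and SPARC. They were picked by symbol from the 19251 genes listed in each library, because their levels in untreated cells differ strongly between the cell lines of the study, and all 9 were found. The levels that chose them are therefore given as a description and carry no test. RNA sequencing was made of CAOV3, an established ovarian cancer line labelled epithelial and high grade serous, and of TOV21G, labelled epithelial and clear cell. Both lines carried the wild-type genotype, and each line is 1 established line standing for its tumour type. In each line 3 libraries came from untreated cells and 3 from cells given 10% ascites, the fluid that gathers in the abdomen in ovarian cancer, for 16 h, all in DMEM with fetal bovine serum. The labels name no vehicle for the untreated wells and do not say whether the libraries of a group came from separate cultures, so p-values measure only the spread between these libraries, which may be technical.

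The matrix has an interstitial part and a basement membrane, the thin sheet beneath epithelia. Fibrillar collagens, such as types I and III, form the rope-like fibres of the interstitial part, while collagen IV forms the mesh of the basement membrane, to which nidogens tie the laminins. Fibronectin is laid down as fibrils by way of integrins, and lumican and SPARC bind collagen and affect how it is assembled. In ovarian cancer this material is made both by fibroblasts of the tumour and by the cancer cells.

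Values are the authors' normalised read counts, that is, read counts divided by 1 size factor per library, and the recovered totals were 26697609 to 34491304 reads per library. At this depth 1 read corresponds to a value of 0.828 to 1.13. Of the labelled epithelial type, all 6 listed markers (EPCAM, CDH1 and 4 keratins) were found in both lines, with a summed level of 153270 to 154113 in the CAOV3 controls and 11293 to 12749 in the TOV21G controls. CDH1, the epithelial cadherin, was at 6.29 to 17.3 in the TOV21G controls, far below the keratins and EPCAM. Of 8 fibroblast markers 5 were listed, and these summed to 1010 to 1120 in CAOV3 controls, mostly PDGFRA, and to 1131 to 1320 in TOV21G controls, mostly ACTA2. Of 9 leukocyte markers 2 (CD14 and LYZ) were listed, of 5 endothelial markers 1 (PECAM1, at most 11.3 in any library) and of 3 haemoglobin genes none. The markers not listed are not analysed here.

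In untreated cells the 9 genes split by line. FN1, COL3A1, LUM and SPARC were higher in CAOV3, whereas COL1A1, COL1A2, COL4A1, COL4A2 and NID2 were higher in TOV21G. For 7 of them the lower line had a mean value under 10, a few reads per library, and COL1A1 and SPARC were the members with a clear signal in both lines. Strong line differences were common in these data: untreated TOV21G and CAOV3 differed at an adjusted p under 0.05 (limma, Benjamini-Hochberg) for 82.2% of the 17616 genes tested, and for 7.22% with a log2 difference of at least 5. Within 1 bulk library, fewer cells that use a gene and less RNA per cell cannot be told apart.

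**Figure D1:**
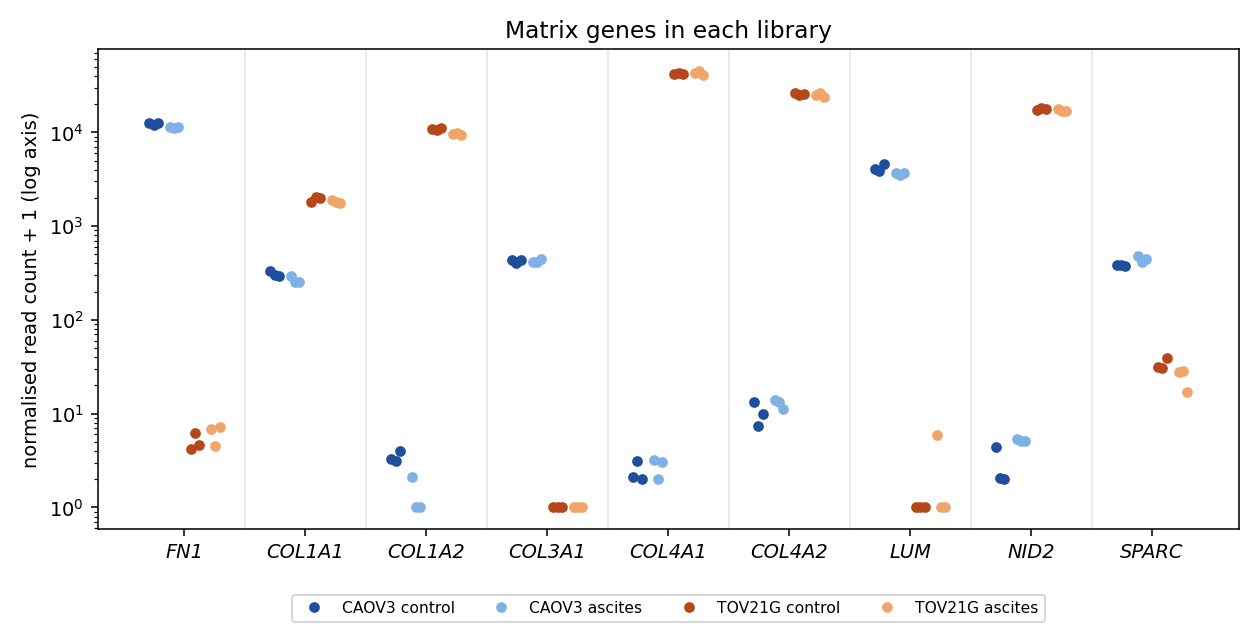
Normalised read count plus 1 (log axis) of the 9 matrix genes in each of the 12 libraries, with 1 point per library and colours for the 4 groups. The lines are far apart for every gene, from 6.34-fold for COL1A1 upwards, whereas the untreated and the ascites points of a line lie close together wherever the gene has more than a few reads.

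FN1 encodes fibronectin, the cell-adhesive glycoprotein of the interstitial matrix and of plasma. The untreated CAOV3 libraries had FN1 values of 12711, 12043 and 12576, and the ascites libraries 11522, 11205 and 11399. The untreated TOV21G libraries had 3.25, 5.24 and 3.59, and the ascites libraries 5.8, 3.54 and 6.26. FN1 was thus abundant in CAOV3 and at a few reads in TOV21G, a ratio of 3101-fold (95% exact interval 1775 to 6002) between the untreated groups, where the interval covers the counting of reads only. FN1 lies at chr2:215360440-215436172, minus strand (GENCODE 29, GRCh38), and no gene overlaps it in that annotation.

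LUM encodes lumican, a small leucine-rich proteoglycan that binds collagen fibrils. The untreated CAOV3 libraries had 4086, 3898 and 4604, and the ascites libraries 3699, 3532 and 3711. All 3 untreated TOV21G libraries were listed at 0, and among the ascites libraries 1 had 6 reads, a value of 4.97, and the others 0. Against a floor of 3 reads over the untreated TOV21G group, which is a value of 1.00, LUM was at least 4197-fold higher in CAOV3. LUM lies at chr12:91102629-91111831, minus strand.

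COL1A1 and COL1A2 encode the chains of type I collagen, whose usual molecule joins a pair of alpha-1 chains with 1 alpha-2 chain. In TOV21G both were present: COL1A1 had 1822, 2033 and 1979 in the untreated libraries and 1922, 1829 and 1767 with ascites. COL1A2 had 10954, 10509 and 11099.6 untreated and 9633, 9859 and 9491 with ascites. In CAOV3 COL1A2 was next to absent. COL1A1 was found at 331, 298 and 295 in the untreated and 293, 254 and 254 in the ascites libraries, while COL1A2 had 2.27, 2.15 and 2.97 untreated and 1.09, 0 and 0 with ascites, 8 reads in all 6 libraries together. Untreated TOV21G exceeded untreated CAOV3 by 6.34-fold (95% exact interval 5.9 to 6.81) for COL1A1 and by 4379.5-fold (95% exact interval 2125 to 10894) for COL1A2. COL1A1 lies at chr17:50183289-50201632, minus strand, and COL1A2 at chr7:94394561-94431232, plus strand.

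COL3A1 encodes the chain of type III collagen, which forms fibres with type I in soft tissues. The untreated CAOV3 libraries had 430.1, 403 and 438 and the ascites libraries 409, 414 and 449, while all 6 TOV21G libraries were listed at 0. With the floor of 3 reads over the untreated TOV21G group, COL3A1 was at least 423-fold higher in CAOV3. Of these 3 members, chosen for their line difference, TOV21G had COL1A1 and COL1A2 at levels above a few reads and CAOV3 had COL1A1 and COL3A1, while COL27A1, a fibrillar collagen outside the choice, was at 101 per kilobase of exon in CAOV3 and 71.2 in TOV21G. COL3A1 lies at chr2:188974320-189012746, plus strand.

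COL4A1 and COL4A2 encode the chains of the most widespread type IV collagen of basement membranes. COL4A1 had 41870.5, 43113 and 42373 in the untreated TOV21G libraries and 42737, 44832 and 40804 with ascites, the highest values of any member. COL4A2 had 26159.8, 25336 and 25867 untreated and 24936, 26551 and 23718 with ascites. In CAOV3 both were almost silent. COL4A1 had 1.13, 2.15 and 0.99 untreated and 2.19, 1.02 and 2.05 with ascites, and COL4A2 12.5, 6.45 and 8.91 and 13.1, 12.3 and 10.2. The ratio of untreated TOV21G to untreated CAOV3 was 29943-fold (95% exact interval 11694 to 109899) for COL4A1 and 2798-fold (95% exact interval 1909.6 to 4284) for COL4A2.

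These genes sit head to head, COL4A1 at chr13:110148963-110307233, minus strand, and COL4A2 at chr13:110305812-110513209, plus strand, and their RefSeq starts (GRCh38.p14) are separated by 126 bases. The annotated genes overlap on opposite strands, and the sources used here do not say whether the counting used strand, so reads in the overlap cannot be assigned with certainty. The same holds for NID2 and RTRAF, SPARC and CLMAT3, COL1A2 and AC002074.1, and COL3A1 with the microRNA genes inside it.

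NID2 encodes nidogen-2, which links laminin to collagen IV. NID2 had 17283, 18036 and 17850.4 in the untreated TOV21G libraries and 17723, 17053 and 16819 with ascites. In CAOV3 it had 3.4, 1.08 and 0.99 untreated and 4.38, 4.09 and 4.09 with ascites, 5 and 12 reads per group. The ratio between the untreated groups was 10007-fold (95% exact interval 4288 to 30819.6). The higher line was TOV21G, as for COL4A1 and COL4A2. NID2 lies at chr14:52004803-52069228, minus strand.

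SPARC encodes a matricellular glycoprotein that binds collagen and is known to act in its assembly outside the cell. The untreated CAOV3 libraries had 380.2, 379.7 and 379, and the ascites libraries 476, 416 and 439.9. The untreated TOV21G libraries had 30.4, 29.4 and 38.6, and the ascites libraries 26.5, 27.4 and 16.1. Untreated CAOV3 exceeded untreated TOV21G by 11.5-fold (95% exact interval 9.33 to 14.2), and with COL1A1 this is the smaller kind of line difference among the 9. SPARC was low in the line with the most type I and type IV collagen RNA. SPARC lies at chr5:151661096-151687165, minus strand.

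Promoter sequences were at hand for 5 of the 9 genes (FN1, COL4A1, COL4A2, NID2 and SPARC), as RefSeq windows of 300 bases on GRCh38.p14. Stretches of FN1, abundant in CAOV3, and NID2, abundant in TOV21G, are shown because these genes have opposite line use. Each is the part of the window upstream of every start that GENCODE 29 gives the gene, 5′ to 3′ on the minus strand, at chr2:215436173-215436318 (146 bases, ending 104 bases before the RefSeq start) and chr14:52069229-52069309 (81 bases, ending 169 bases before it). Capitals mark the motifs searched on both strands, CCAAT (the CCAAT box), GGGCGG (the GC box bound by SP1) and TGACGTCA (the cAMP response element).
FN1: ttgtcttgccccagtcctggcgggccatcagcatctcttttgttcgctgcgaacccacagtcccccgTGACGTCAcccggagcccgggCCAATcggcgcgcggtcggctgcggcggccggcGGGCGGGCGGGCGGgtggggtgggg
NID2: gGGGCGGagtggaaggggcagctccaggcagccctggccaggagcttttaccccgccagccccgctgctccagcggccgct
The FN1 stretch held 1 TGACGTCA, 1 CCAAT and 3 GGGCGG that overlap each other at their ends, and the NID2 stretch 1 GGGCGG. In the full windows FN1 had 1 TGACGTCA, 1 CCAAT and 6 GGGCGG, NID2 had 2 CCAAT and 4 GGGCGG, COL4A1 had 1 CCAAT and 2 GGGCGG, COL4A2 had 1 CCAAT and 1 GGGCGG in a window that overlaps that of COL4A1, and SPARC had none of the 3 motifs. Over the first window of each of 27305 genes, CCAAT was in 35.7%, GGGCGG in 44.6% and TGACGTCA in 1.98%. The windows of COL4A1 and COL4A2 each had 45 CpG, that of FN1 38, that of NID2 25 and that of SPARC 11, beside a median of 14 over all windows. A match is a description of letters only, and the letters come from the reference genome, not from either line.

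Levels of different genes were compared per kilobase of annotated exon. In untreated CAOV3, LUM led with 1395 ± 122 per kilobase (SD, n = 3), followed by FN1 with 719 ± 20.4. SPARC with 78.6 ± 0.119, COL3A1 with 62.2 ± 2.69 and COL1A1 with 31.4 ± 2.06 followed, and none of these 5 overlapped its neighbour. The other 4 were under 1 per kilobase, where COL4A2, NID2 and COL1A2 overlapped. In untreated TOV21G the order was COL4A1 with 2880.5 ± 42.4 per kilobase, NID2 with 2773 ± 61.3, COL4A2 with 1337 ± 21.7, COL1A2 with 973 ± 27.6 and COL1A1 with 198 ± 11.2. SPARC was at 6.78 ± 1.05 and FN1 at 0.233 ± 0.0615. With the length of the longest transcript in place of all exons, FN1 came to 1357 per kilobase in CAOV3, next to 1395 for LUM, and COL4A2 to 3971 in TOV21G, above NID2 at 3684. Among 19223 genes with a length, COL4A1 ranked 293 and NID2 310 in untreated TOV21G, and LUM 911 and FN1 2034 in untreated CAOV3.

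Partner chains were not equal in level. In untreated TOV21G the level of COL4A1 per kilobase was 2.16 ± 0.0669 times that of COL4A2 (SD, n = 3), and 2.24 ± 0.0220 times with ascites, with overlapping libraries. With the longest transcripts the untreated ratio was 1.62. COL1A2 per kilobase was 4.93 ± 0.371 times COL1A1 in untreated TOV21G and 4.63 ± 0.187 times with ascites, again with overlap, although the usual molecule holds more alpha-1 than alpha-2 chains. With the longest transcripts this ratio was 6.28. NID2 per kilobase was 38.3 ± 2.05 times its paralog NID1 in untreated TOV21G, and NID1 was at 0 in all untreated CAOV3 libraries.

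**Figure D2:**
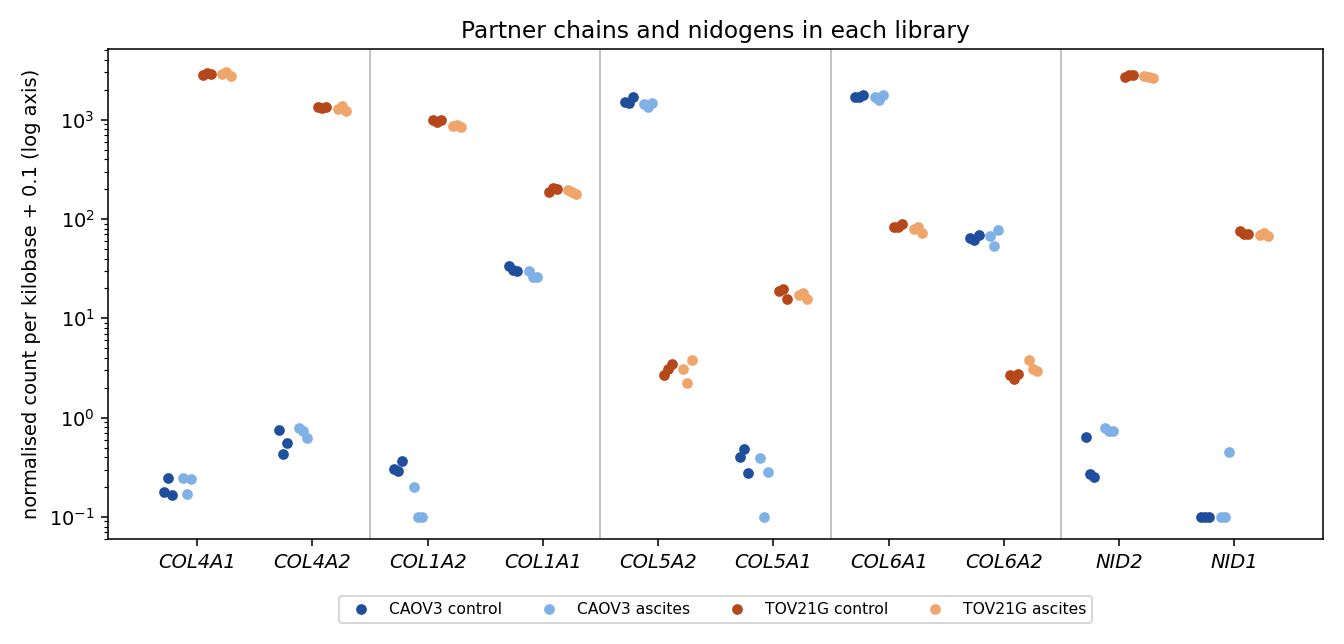
Normalised count per kilobase of exon plus 0.1 (log axis) for collagen chains that join in 1 molecule, and for the nidogens, with 1 point per library in 4 groups. In untreated CAOV3, COL5A2 stands high (mean 1558) while COL5A1 is at 0.289. COL1A1 is at a modest 31.4 there, below its 198 in untreated TOV21G, while COL1A2 is at 0.221. TOV21G has COL4A1 with COL4A2 and COL1A2 with COL1A1. Unequal chains are seen in both lines: COL6A1 is 26.5 times COL6A2 in untreated CAOV3 and 33.6 times in untreated TOV21G. In untreated TOV21G, COL5A2 is 0.169 times COL5A1.

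Type V collagen, which helps to start type I fibres, was also represented by 1 chain in CAOV3. COL5A2, the gene next to COL3A1 on chromosome 2 with 19149 bases between them, was at 11321, 10939 and 12585 in the untreated CAOV3 libraries and 19.5, 22 and 25.1 in untreated TOV21G. Its partner COL5A1 was at 3.4, 4.3 and 1.98 and 209, 221 and 172. COL3A1 and COL5A2, convergent neighbours, were thus both high in CAOV3 and low or at 0 in TOV21G. These genes were singled out after their values were seen. Of the other genes on the matrix lists, 139 of 144 listed were tested. Of these, 24.5% (34, with 13 higher in CAOV3 and 21 higher in TOV21G) were called with a log2 difference of at least 5. Over all genes the share was 7.22%. The lists were chosen with earlier results of these data known, so the shares are a description and were not tested against each other. Some list genes, such as COL4A5 and ADAMTS1 at 0 in CAOV3 and MMP1 at 0 in TOV21G, passed the filter through 1 line only.

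The genes with the highest level per kilobase in each list set the members among their kind. Among fibrillar collagens these were COL5A2 (1558 per kilobase) and COL27A1 (101) in untreated CAOV3, and COL1A2 and COL1A1 in untreated TOV21G. Among network collagens they were COL18A1 (270.4) and COL8A2 (0.746) in CAOV3, and COL4A1 and COL18A1 (2348) in TOV21G, where COL18A1 encodes the basement membrane collagen that yields endostatin. Among other collagens they were COL6A1 (1710.0) and COL7A1 (391) in CAOV3, and COL7A1 (1836) and COL12A1 (454) in TOV21G. Among laminins and linkers LAMB1 (2204) led in CAOV3, and LAMC1 (3652) led in TOV21G, followed by NID2, while LAMA2 was at 3.89 and 3.96 in the lines and LAMA1 at 0.0208 in CAOV3.

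Glycoproteins were led by TGFBI (2324 per kilobase) and CCN2 (1829) in CAOV3, and by SPP1 (59428), which encodes osteopontin, and IGFBP7 (9339) in TOV21G. Proteoglycans were led by LUM and VCAN (1046) in CAOV3, and by SRGN (13616) and VCAN (1541) in TOV21G. The folding and cross-linking genes were led by PPIB and P4HB in both lines (6593 and 2921 in CAOV3, 6122 and 5056 in TOV21G), and the proteases and inhibitors by TIMP1 and TIMP2 (1846 and 429 in CAOV3, 4200 and 630.0 in TOV21G). Among receptors ITGB1 led in both (2896 and 11900), followed by ITGAV (1929) in CAOV3 and ITGA3 (4647) in TOV21G.

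**Figure D3:**
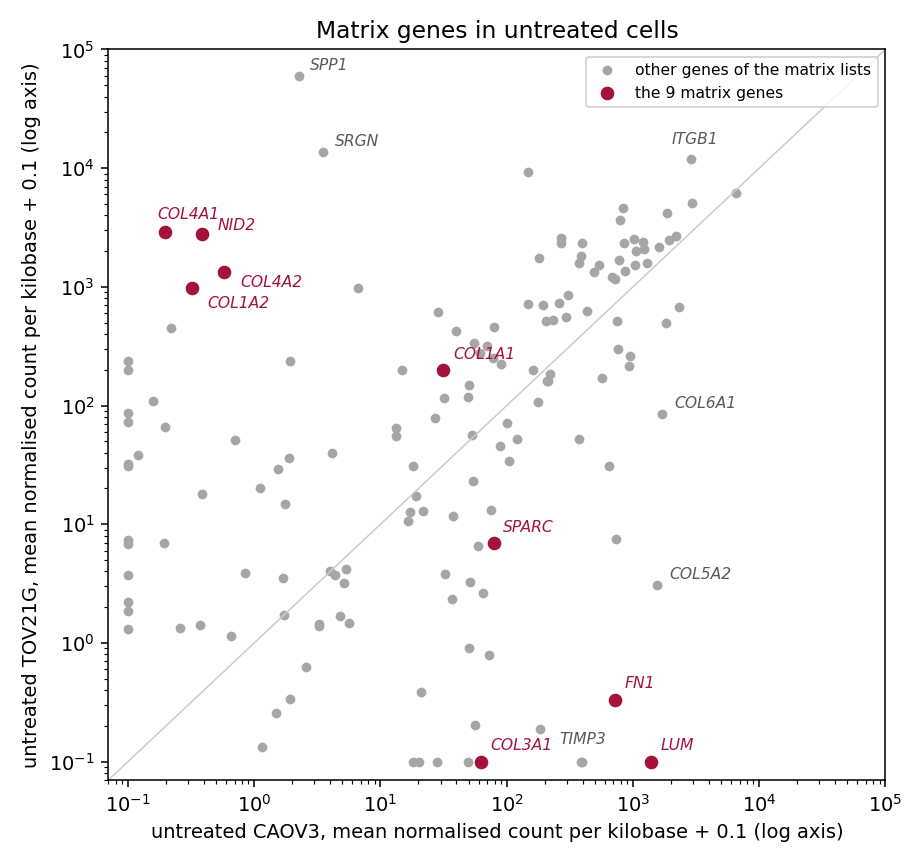
Mean normalised count per kilobase plus 0.1 (log axes) in untreated CAOV3 (x) and untreated TOV21G (y), with 1 point for each listed matrix gene, the 9 members in dark red and equal levels on the line. The members lie away from the line by the choice that picked them. SPP1, SRGN and TIMP3 lie as far from it as several of them, and COL5A2 lies farther than COL1A1 and SPARC only.

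The second question of the design was what ascites did to these genes within each line. The untreated libraries used here also served to choose the members, and both lines shared 1 limma fit over all 17616 tested genes, in which all 9 members passed the filter on low values. In CAOV3, 1 of the 9 was called higher (NID2) and 1 lower (COL1A2), beside 0.636% and 1.10% of all genes, and both calls rest on a handful of reads. In TOV21G none of the 9 was called, beside 0.142% higher and 0.267% lower of all genes. The median log2 change of the 9 was 0.00 in CAOV3 and -0.04 in TOV21G, beside -0.00207 and -0.0178 over all tested genes. FN1, COL3A1 and LUM in TOV21G, and COL1A2, COL4A1 and NID2 in CAOV3, passed the filter only through the other line. They carry no usable response there, and COL3A1, at 0 in every TOV21G library, could not be called. Counts and medians over all 9 include these members, so they do not show how little the 9 changed.

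The calls of COL1A2 and NID2 in CAOV3 concern genes that this line hardly uses. COL1A2 went from 7 reads in the untreated libraries to 1 with ascites, a ratio of 0.140 (95% exact interval 0.00312 to 1.09), with a log2 change of -1.43 ± 0.223 (SE) and a limma adjusted p of 0.00461. NID2 went from 5 reads to 12, a ratio of 2.36 (0.774 to 8.55), with 0.98 ± 0.218 and an adjusted p of 0.0402. Both intervals from the reads include no change. On the recovered reads the adjusted p was 0.226 and 0.438 by edgeR and 0.314 and 0.51 by DESeq2, and neither gene could be tested in CAOV3 alone, where they were under the filter. With a pseudocount of 10 COL1A2 lost its call (limma adjusted p = 0.0524), and for NID2 the call ended in 10 of 12 refits that each dropped a library.

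The 5 members with values over 100 in CAOV3 had mean differences between -13.4% and 16.9% with ascites. FN1 was lower in all 3 ascites libraries than in any untreated library, 11376 ± 160.1 against 12443 ± 353 (SD, n = 3), a mean difference of -8.58%. In the fit of both lines its log2 change was -0.13 ± 0.164 with an adjusted p of 0.818, but the spread there includes the few reads of TOV21G. In a limma fit of the 6 CAOV3 libraries alone the same change had an SE of 0.032 and an adjusted p of 0.012, and edgeR on that line alone gave 0.00348. LUM was likewise lower in every ascites library, 3647 ± 100.2 against 4196 ± 366, with a log2 change of -0.20 ± 0.494 and an adjusted p of 0.936 in both lines together. In CAOV3 alone the SE was 0.0459 and the adjusted p 0.00707 by limma and 0.00727 by edgeR. The members with the highest levels per kilobase in CAOV3 were thus called lower in that line's own fit and not in the fit over both lines.

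SPARC was higher in all 3 CAOV3 ascites libraries, 444 ± 30.1 against 379.6 ± 0.574, with a log2 change of 0.22 ± 0.179 and a limma adjusted p of 0.662. In CAOV3 alone its adjusted p was 0.0552 by limma and 0.0439 by edgeR. COL1A1 was lower in all 3, 267 ± 22.8 against 308 ± 20.2, with -0.21 ± 0.0705 and an adjusted p of 0.205, and 0.157 in CAOV3 alone. COL3A1 gave 424 ± 21.8 against 424 ± 18.3, a log2 change of 0.00 with an SE of 0.0704 in CAOV3 alone. In that fit of CAOV3, where 6 members could be tested, 2 were called by limma and 3 by edgeR, beside 8.19% and 9.87% of all genes. The untreated and ascites values did not overlap for 6 of the 9 members in CAOV3, beside 24.2% of all genes. The 6 include COL1A2 (7 reads untreated, 1 with ascites) and NID2 (5 and 12). These genes and COL4A1 (4 reads untreated, 5 with ascites, overlapping) passed the filter only through their values in TOV21G, so they add nothing to this count. Of the 6 members tested in CAOV3 alone, FN1, LUM, COL1A1 and SPARC did not overlap, while COL3A1 and COL4A2 did.

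The summed level of the epithelial markers moved with the treatment in CAOV3, from 153270 to 154113 in the controls to 176985 to 187539 with ascites, and its part in the results above was not tested. The sum is mostly keratin: CDH1 was at 389 to 455 in the controls and lower, at 266 to 281, with ascites (log2 change -0.64, limma adjusted p = 0.438). The summed fibroblast markers were 1010 to 1120 in the CAOV3 controls and 1096 to 1164 with ascites, and the 2 listed leukocyte markers 117 to 134 and 101 to 125. In TOV21G the epithelial markers summed to 10698 to 12301 with ascites and the fibroblast markers to 941 to 1204, both overlapping the controls, and the 5 mesothelial markers to 597 to 676 in the controls and 594 to 657 with ascites, against 47.0 to 77.2 over all CAOV3 libraries.

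In TOV21G the 5 abundant members (COL1A1, COL1A2, COL4A1, COL4A2 and NID2) had mean differences between -11.0% and 0.797% with ascites. COL4A1 gave 42791 ± 2015 with ascites against 42452 ± 625 untreated, a log2 change of 0.01 with an SE of 0.174 in both lines together and 0.0768 in TOV21G alone. COL4A2 gave 25068 ± 1421 against 25788 ± 418, a log2 change of -0.04, and NID2 17198 ± 469 against 17723 ± 392, also -0.04. In each of these 3 genes of the basement membrane the libraries of the groups overlapped. COL1A1 gave 1839 ± 77.6 against 1945 ± 109.5, with -0.08 ± 0.0705, an adjusted p of 0.739 and overlapping libraries. A p that misses the threshold does not show that the levels are equal. Changes well above their SE can go uncalled: in TOV21G alone COL1A2 had -0.17 with an SE of 0.0536 and a limma adjusted p of 0.635.

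COL1A2 was the 1 abundant member whose groups did not overlap in TOV21G, with 9661 ± 186 in the ascites libraries, all below the untreated 10854 ± 308. Its log2 change was -0.17 ± 0.223, with an adjusted p of 0.836 by limma in both lines and 0.635 in TOV21G alone (SE 0.0536). On the recovered reads it was 0.0178 by DESeq2 and 0.108 by edgeR. SPARC was also lower in all 3 ascites libraries, 23.3 ± 6.29 against 32.8 ± 5.06, from 99 reads untreated and 81 with ascites, with -0.50 ± 0.179 and an adjusted p of 0.423. Without TOV21G ascites replicate 3 the change was -0.26. SPARC was the 1 member with an unadjusted limma p under 0.05 in TOV21G, beside 1615 of the 17616 genes tested. There limma called 0, edgeR 0 and DESeq2 1 of the 9. On TOV21G alone, where 6 members could be tested, limma and edgeR both called 0, beside 0.141% and 0.436% of all genes. Non-overlap held for 2 of the 9 in TOV21G (COL1A2 and SPARC), beside 11.1% of all genes. FN1, COL3A1 and LUM passed the filter only through their values in CAOV3, so they add nothing to the TOV21G counts.

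**Figure D4:**
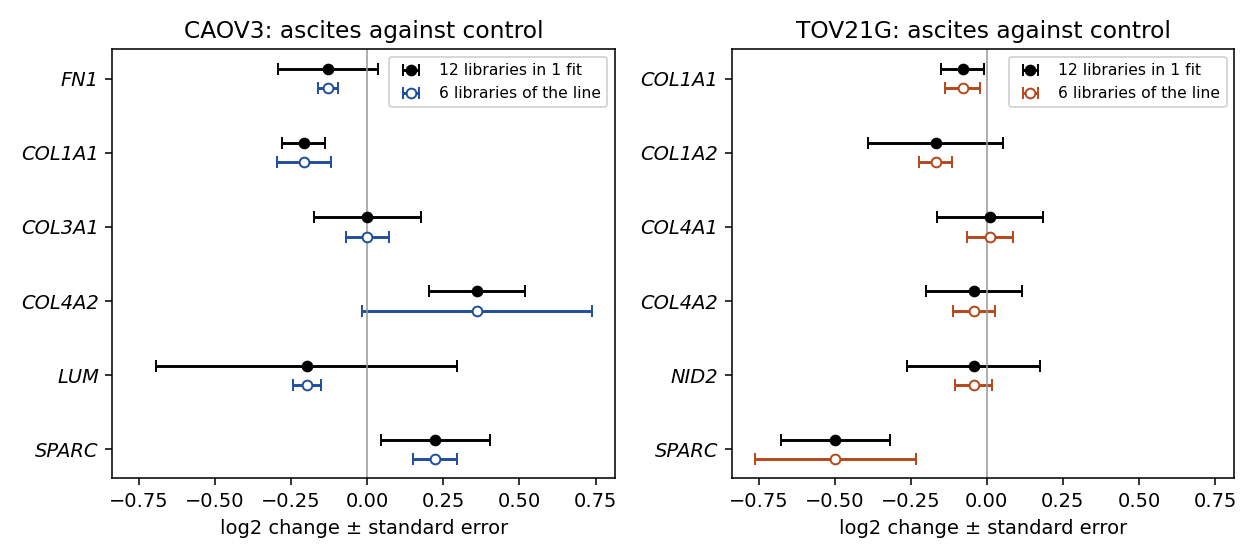
Log2 change with ascites (x) of the members with a mean value of at least 10 in a group of that line (y), in CAOV3 (left) and TOV21G (right), as the limma estimate with its standard error from all 12 libraries (filled) and from the 6 libraries of the line (open). The estimates are the same in both fits, while the standard error of LUM in CAOV3 goes from 0.494 to 0.0459 and that of COL1A2 in TOV21G from 0.223 to 0.0536.

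The responses of the lines were compared by their difference, TOV21G minus CAOV3. Limma called 0 of the 9 members, beside 0.545% of all genes, and edgeR and DESeq2 also called 0. An unadjusted limma p under 0.05 was found for 3 (COL1A2, NID2 and SPARC), and for 2091 of the 17616 genes tested. COL1A2 and NID2 had a handful of reads in CAOV3 and passed the filter only through TOV21G. For 7 members 1 line had too few reads to give a response. Of the pair present in both lines, COL1A1 had a difference of 0.13 ± 0.0997 (log2, SE) with an adjusted p of 0.605, and SPARC -0.72 ± 0.253 with an adjusted p of 0.308.

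On the fixed matrix lists beside the members, limma called 7 of 139 tested genes with ascites in CAOV3 (2 higher, 5 lower), 2 in TOV21G (1 higher, 1 lower) and 1 in the difference. These are 5.04%, 1.44% and 0.719% of the list genes, beside the shares over all genes of 0.636% higher and 1.10% lower in CAOV3, 0.142% and 0.267% in TOV21G, and 0.545% in the difference. TGM2, a transglutaminase that cross-links matrix proteins, rose in CAOV3 from 3052, 2935 and 3067 to 4615, 4309 and 4774, a log2 change of 0.60 ± 0.0564 with a limma adjusted p of 0.000109. In TOV21G it had 13314, 12119.5 and 12634 untreated and 13899, 14584 and 12661 with ascites, which overlapped, and the difference between lines was -0.49 with an adjusted p of 0.0166, which 4 of the 12 fits without 1 library put above the threshold. MIA3, whose product loads procollagen into transport vesicles, fell in CAOV3 from 2127, 2075 and 2134 to 1777, 1667 and 1768, a change of -0.28 (adjusted p = 0.00290). LTBP4, which binds latent TGF-beta, fell from 2445, 2348 and 2367 to 2024, 2048 and 2133, a change of -0.21 (adjusted p = 0.00592). Reads of TGM2 and MIA3 can mix with those of genes annotated on the opposite strand.

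The other calls each failed without some single library. In CAOV3 these were the collagen IX chains COL9A3 (-0.62) and COL9A2 (-0.57), the matricellular CCN2 (-0.31) and the laminin-receptor subunit ITGA3 (0.21), with limma adjusted p of 0.0337, 0.0227, 0.0424 and 0.0366. In TOV21G they were MATN3 (-0.89, adjusted p = 0.0136, from 23.8, 21 and 24.2 to 9.94, 15.9 and 10.7) and SDC4, the gene of syndecan-4 (0.34, adjusted p = 0.0187). By list, with the members counted in, in CAOV3 1 of 11 tested fibrillar collagens was called (COL1A2, lower), 0 of 6 network collagens, 2 of 13 other collagens (lower), 1 of 15 laminins and linkers (NID2, higher), 2 of 29 glycoproteins (lower), 0 of 6 proteoglycans, 2 of 27 folding and cross-linking genes (1 higher, 1 lower), 0 of 20 proteases and inhibitors and 1 of 21 receptors (higher). COL1A2 and NID2 passed the filter only through their values in TOV21G, so their calls add nothing to these counts. The median log2 change over the 139 genes was 0.00 in CAOV3 and -0.04 in TOV21G.

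For each member the gene with the most similar profile was sought over the 6 libraries of the line where the member is higher, among 11366 genes in CAOV3 and 11445 in TOV21G with a mean value of at least 100. These r values over 6 libraries share the treatment contrast and library scaling, and are a description. In CAOV3 the nearest genes were ABCC3 for FN1 (Pearson r = 0.995), ABCB1 for COL3A1 (0.993), NSUN6 for LUM (0.994) and TARDBP for SPARC (0.994). LUM ranked 703 for FN1 with r = 0.879, and SPARC 9949 with r = -0.75. In TOV21G they were BCL9 for COL1A1 (0.999), SREBF2 for COL1A2 (0.992), NAT10 for COL4A1 (0.987), CCNI for COL4A2 (0.999) and MTMR3 for NID2 (0.979). The partner chains did not lead each other's lists: COL4A2 ranked 500 for COL4A1 and COL4A1 4172 for COL4A2 (r = 0.710), and COL1A2 ranked 1334 for COL1A1 and COL1A1 4955 for COL1A2 (r = 0.465), while NID2 ranked 5 for COL1A1 (r = 0.974).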

How the data were processed

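The deposited files give, for each of 12 libraries, 1 signal per gene: a read count that the authors divided by a size factor. This was found from the values, of which 100% in every library were whole multiples of 1 step (tolerance 0.01 reads, largest deviation 5.33e-05), so whole reads were recovered. Trim Galore, cutadapt, STAR, HTSeq and DESeq are named in the submitters' processing notes, and their versions and the genome build are not given in the sources used here. Symbols came from a gene name table (19087) or GENCODE 29 (136), and lengths and positions from GENCODE 29.

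Genes with a value of at least 10 in at least 3 libraries (17616) entered 1 fit of limma 3.58.1 (R 4.3.3, lmFit, eBayes with trend) on log2(value + 1), whose fold changes understate low genes. Two-sided p-values were adjusted by Benjamini-Hochberg over all genes, with calls under 0.05. edgeR 4.0.16 and DESeq2 1.42.0 on the recovered reads, other pseudocounts, no filter, TMM scaling, each line alone (edgeR there was added after seeing the data), a replicate block and each library left out were alternatives. On the recovered reads edgeR called 262 genes higher and 370 lower in CAOV3, and 60 and 71 in TOV21G. The limma script was tested on simulated data. Intervals are exact (Clopper-Pearson) and cover counting error only. The members, lists and naming rule (called list genes, the top 2 per kilobase, nearest profiles) were chosen with earlier results of these data known. A gene that the rule names is not reported here.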

Additional observations from a re-analysis of the deposited data

Results flagged for a closer look

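The SPARC values lay on opposite sides of the controls in the lines: all 3 CAOV3 ascites libraries lay above all 3 controls, and all 3 TOV21G ascites libraries below all 3 controls, on 18 to 43 reads per TOV21G library. SPARC was called in neither line (limma adjusted p of 0.662 and 0.423). The difference of the log2 changes, TOV21G minus CAOV3, was -0.72 ± 0.253 (SE), and its limma test gave an adjusted p of 0.308, which misses the threshold. Without TOV21G ascites replicate 3 the difference was -0.48 and the change in TOV21G -0.26 in place of -0.50.

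TGM2 had a difference of -0.49 on the same scale, with a limma adjusted p of 0.0166, from a rise in all 3 CAOV3 ascites libraries and overlapping groups in TOV21G.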

How the results depend on the processing

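Among the 9 members the count called in CAOV3 was 2 as reported, 1 with a pseudocount of 0.5, 0 with a pseudocount of 10, 0 by edgeR, 0 by DESeq2, and 1 to 3 when each library was left out. Without CAOV3 control replicate 1 the third was COL4A2, at 26 reads untreated and 34 with ascites (log2 change 0.58, adjusted p = 0.0384). In TOV21G the count was 0 as reported, 1 by DESeq2 (COL1A2), and 0 to 0 with each library left out. In the difference it was 0, and 0 to 1 with each library left out: NID2 without CAOV3 control replicate 1, and COL1A2 without CAOV3 ascites replicate 1. Of 328 recomputed log2 changes of members 302 were counted as the same, 18 lost the call (COL1A2 and NID2 in CAOV3) and 7 gained it. The 1 counted as reversed was COL4A1 in TOV21G, at -0.0237 without ascites replicate 2 and up to 0.0443 without ascites replicate 3. COL3A1 in CAOV3, at 0.000145 as reported, also changed sign, to -0.0417 without CAOV3 ascites replicate 3, and was not counted as reversed. Of 81 recomputed level differences between the untreated lines, whose direction the choice of members fixes, 11 moved by more than the spread between libraries, all with another pseudocount. Scaling moved the median of all genes by under 0.1.

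Among the other matrix genes the count in CAOV3 was 7, and 15 by edgeR, 14 by DESeq2, 29 with limma and 32 with edgeR on that line alone, and 3 to 10 with each library left out. In TOV21G it was 2, and 0 with limma and 1 with edgeR on that line alone, and 0 to 4 with each library left out. In the difference it was 1, and 2 with a pseudocount of 10, 3 with TMM scaling, 5 by edgeR, 5 by DESeq2, and 0 to 7 with each library left out. The cause was not tested, except that fits without a library hold fewer samples.

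The replicate block gave 1 called member in CAOV3 (COL1A2), with NID2 at an adjusted p of 0.0827, and among the other matrix genes 4 in CAOV3, 0 in TOV21G and 0 in the difference. Over all genes it gave 49 higher and 67 lower in CAOV3 against 112 and 193 without it, 5 and 8 in TOV21G against 25 and 47, and 9 in the difference against 96. The deviations of same-numbered libraries correlated at -0.03, 0.0703 and 0.0429 in CAOV3 and at -0.20, -0.57 and 0.0493 in TOV21G. These are deviations from means of 3 libraries, so they cannot decide whether same-numbered libraries are paired, and the labels do not say so. The highest values in TOV21G joined different numbers, 0.58 for control 1 with ascites 2 and 0.488 for control 2 with ascites 3.

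Depth limits what can be said where a line has a few reads of a member: FN1, COL3A1 and LUM in TOV21G, and COL1A2, COL4A1, COL4A2 and NID2 in CAOV3.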
